A study of Mus musculus with 12 samples.

Results

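The 6 genes described here encode the calcium release channels of the endoplasmic reticulum: the ryanodine receptors Ryr1, Ryr2 and Ryr3 and the inositol trisphosphate (IP3) receptors Itpr1, Itpr2 and Itpr3. All 6 were found among the 34193 genes of the deposited table. The set was chosen by symbol with the normalised reads of Ryr1 in the genotype comparison already known, that is, selected on those values, to ask whether Ryr1 moves apart from the isoforms that dominate in brain. Their values in that comparison are therefore a description and carry no test. The RNA came from the cerebral cortex of mice aged 8 weeks. All samples carried loxP-flanked Nsd1 on both alleles (Nsd1 flx/flx). The 6 cKO samples also carried a single copy of a Nestin-Cre transgene (cKO, conditional knockout), whose promoter is active in neural progenitors and drives recombination in their neuronal and glial descendants. The 6 controls had no Cre, so a mouse with Cre and intact Nsd1 is not among the groups. NSD1 methylates lysine 36 of histone H3.

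Both receptor families form tetrameric channels that let calcium stored in the endoplasmic reticulum into the cytosol. Ryanodine receptors open on calcium itself or, in skeletal muscle, through contact with the voltage sensor of the plasma membrane, whereas IP3 receptors open when phospholipase C has made IP3 downstream of G protein-coupled receptors. RYR1 is the release channel of skeletal muscle and also occurs in Purkinje cells, RYR2 is the channel of heart and the main ryanodine receptor of the forebrain, and RYR3 has a more restricted pattern that includes hippocampus and striatum. ITPR1 is the neuronal IP3 receptor, ITPR2 is the main one of astrocytes, and ITPR3 is best known from epithelia.

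Depth ranged from 10.5 to 21.1 M reads assigned to genes in the 6 controls and from 14.6 to 27.0 M in the 6 cKO. Values are reads normalised between libraries by the authors, and 3 reads correspond to between 1.98 and 5.64 normalised reads. Each library is named by its genotype and column number. Reads of Y-linked genes summed to more than 100 normalised reads in libraries 1 to 3 of each genotype, called here with Y-linked reads. Libraries 4 to 6 had none except for 3.09 normalised reads in cKO 6, and are called without. This split disagrees with the labelled sex of the same-numbered sample in 8 of 12 cases. Control libraries 4 and 5 stood apart by mitochondrial ribosomal RNA (14.2% and 11.4% of reads, against 1.46% to 6.00% in the other 10). Nsd1, the targeted gene, measured 4235 ± 850 normalised reads without and 3251 ± 299 with Cre (SD, n = 6 each), with overlapping groups and a log2 difference of -0.36 that limma did not call (SE 0.12, adjusted p = 0.383). The measured value covers the whole gene, deleted part or not.

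The start regions of the muscle isoform and of the main brain isoform are shown first, because these genes differed in what they did between the genotypes. Each sequence is the 250 bases before the RefSeq transcription start in assembly GRCm38.p6, read 5′ to 3′ on the strand of the gene, with each CG dinucleotide in capitals. CG is the site of most DNA methylation, which was not measured in these files. The Ryr1 window is chr7:29125152-29125401 on the minus strand and the Ryr2 window chr13:12106946-12107195 on the minus strand.
Ryr1: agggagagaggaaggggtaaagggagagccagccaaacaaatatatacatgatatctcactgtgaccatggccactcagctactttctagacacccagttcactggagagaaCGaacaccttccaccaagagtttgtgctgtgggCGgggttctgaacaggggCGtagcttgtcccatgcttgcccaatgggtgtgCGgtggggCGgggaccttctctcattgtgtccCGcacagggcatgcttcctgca
Ryr2: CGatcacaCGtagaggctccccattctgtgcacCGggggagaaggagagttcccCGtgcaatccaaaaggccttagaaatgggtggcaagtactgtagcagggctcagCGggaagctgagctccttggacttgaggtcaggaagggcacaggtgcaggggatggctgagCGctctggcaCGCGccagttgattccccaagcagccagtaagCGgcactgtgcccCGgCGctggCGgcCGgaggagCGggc
The Ryr1 window holds 6 CG dinucleotides, at the median of 6 over 32851 windows of this length, and the Ryr2 window holds 14, a number reached by 29.4% of windows. Windows were also found for Itpr2, with 22 CG, and Itpr3, with 25. The hexamer GGGCGG, searched on both strands and overlapping the CG count, occurs 2 times in the Ryr1 window and not in that of Ryr2. Of all windows, 16.7% hold it at least 2 times and 32.7% at least once. The hexamer CANNTG, which reads the same on both strands and is the core bound by basic helix-loop-helix factors, has no match in the Ryr1 window and 2 in that of Ryr2, against 66.2% of all windows with a match. CCAAT, searched on both strands, matches once in Ryr1, and 33.8% of windows hold it.

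Ryr1 was the member that differed between the genotypes. It measured 142, 166, 90.3, 173, 126 and 110.2 normalised reads in control libraries 1 to 6 and 256, 315, 305, 259, 267 and 220.1 in cKO libraries 1 to 6. No library of one genotype lay within the range of the other, control 4 and cKO 6 being the nearest. The means were 135 ± 32.1 and 270.3 ± 34.98 (SD, n = 6 each), a ratio of 2.01 and a log2 fold change of 1.03 (SE 0.15). On the scale used, log2 of the value plus 1, such a change is slightly understated for weakly expressed genes. These values rest on 88 to 478 reads per library, and without control libraries 4 and 5 the log2 fold change was 1.17. Ryr1 was 1 of the 120 genes, or 0.834% of 14397 tested, that limma called (Benjamini-Hochberg adjustment over all tested genes, threshold 0.05), and 1 of the 117 genes, or 0.813%, whose cKO libraries all lay above all controls. As Ryr1 was picked with these values known, nothing is read from either count. The authors' deposited table lists it at 1.01 on the log2 scale (standard error 0.15).

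**Figure D1:**
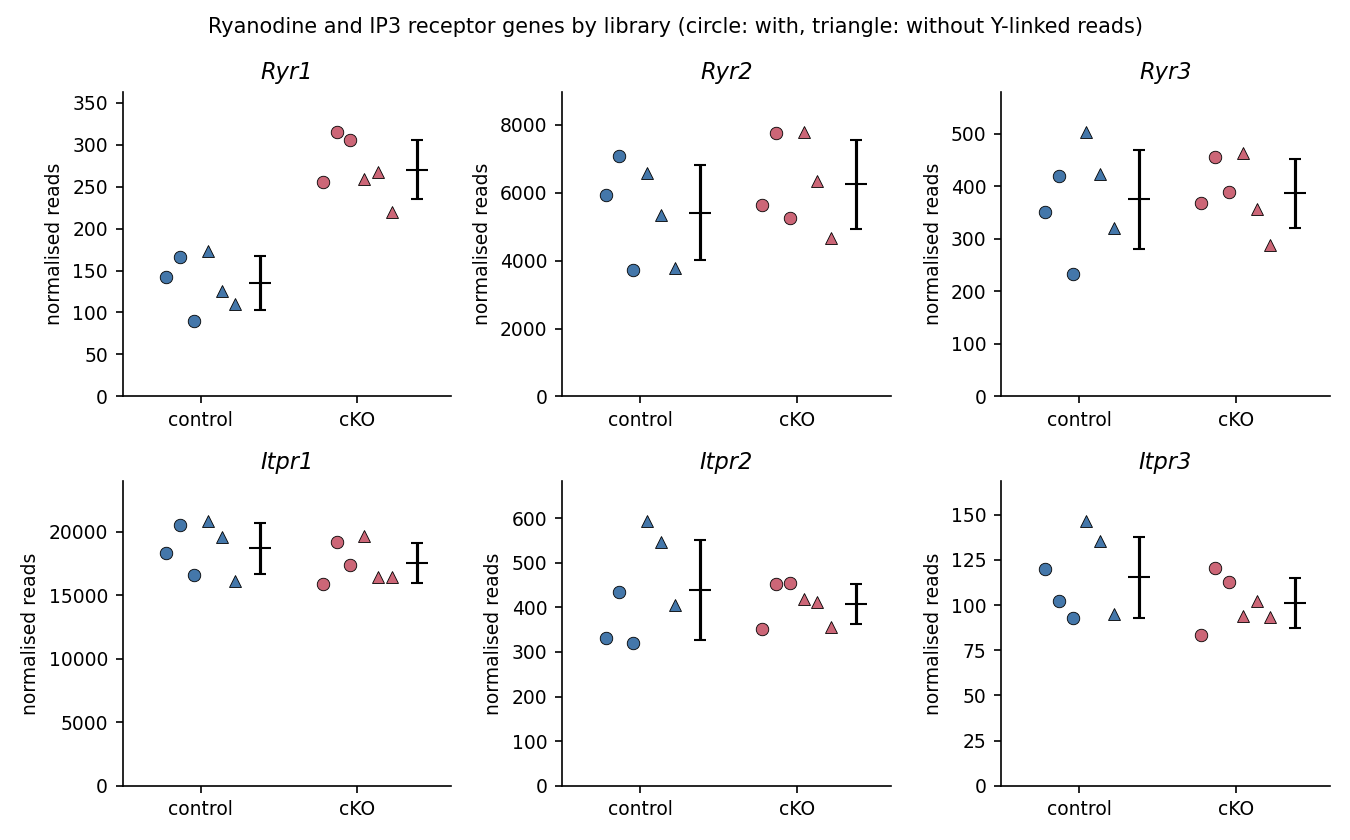
Normalised reads of the 6 receptor genes in each library, controls in blue and cKO in red, in column order from left to right (circles, with Y-linked reads; triangles, without), with mean and SD beside each group. The Ryr1 values of the cKO, from 220.1 to 315, all lie above the controls, while the groups overlap for the other 5 genes.

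Ryr2, the main ryanodine receptor of the forebrain, measured 5927, 7070, 3737, 6595, 5359 and 3786 normalised reads in control libraries 1 to 6. In the cKO it measured 5642, 7762, 5254, 7799, 6343 and 4678. The groups overlapped, with control 3 and control 6 lowest and cKO 2 and cKO 4 highest. The log2 fold change was 0.22 (SE 0.17), from means of 5412 ± 1404 and 6246 ± 1306 (SD, n = 6 each). Ryr3 lay between 233 and 504 normalised reads in the controls (351, 419, 233, 504, 422 and 321 in libraries 1 to 6) and between 288 and 464 in the cKO (369, 455, 389, 464, 357 and 288). All cKO values of Ryr3 fell inside the control range, and its log2 fold change was 0.07 (SE 0.16). No ryanodine receptor other than Ryr1 thus had separated groups.

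The ratio of Ryr1 to Ryr2 within single libraries did not overlap between the genotypes. It contains the Ryr1 values on which the set was chosen, so it is a description and not a second line of evidence. Per 100 normalised reads of Ryr2 there were 2.40, 2.35, 2.42, 2.62, 2.35 and 2.91 of Ryr1 in control libraries 1 to 6 and 4.54, 4.06, 5.81, 3.32, 4.21 and 4.71 in cKO libraries 1 to 6. The control ratios were close to each other (2.51 ± 0.22, SD, n = 6), although Ryr1 itself ran from 90.3 in control 3 to 173 in control 4, and the cKO ratios were higher and more spread (4.44 ± 0.83, SD, n = 6). Ryr3 per 100 reads of Ryr2 overlapped between the groups, at 7.01 ± 1.11 without and 6.25 ± 0.64 with Cre (SD, n = 6 each). It was 5.93 to 6.24 in the controls with Y-linked reads and 7.63 to 8.47 in those without, but 5.87 to 7.40 in the cKO with Y-linked reads and 5.62 to 6.16 in those without.

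**Figure D2:**
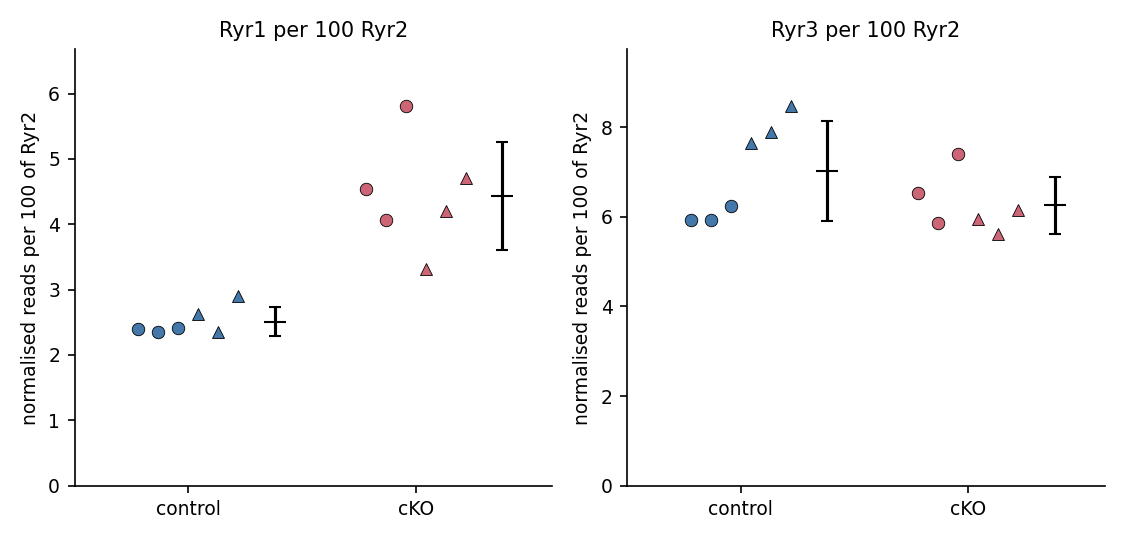
Normalised reads of Ryr1 (left) and Ryr3 (right) per 100 of Ryr2 in each library, in column order from left to right, with mean and SD beside each group (circles, with Y-linked reads; triangles, without). The lowest cKO ratio of Ryr1, 3.32, lies above the highest control ratio, 2.91, and the groups overlap for Ryr3.

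The IP3 receptors had overlapping groups throughout. Itpr1 measured 18321, 20514, 16613, 20834, 19589 and 16142 normalised reads in control libraries 1 to 6. In the cKO it measured 15844, 19187, 17346, 19672, 16461 and 16458. Its log2 fold change was -0.09 with an SE of 0.10, and its values differed least among libraries of all 6 members (SD of the log2 values within groups 0.14, against 0.24 to 0.35 for the others). Itpr2 measured 332, 435, 319, 594, 547 and 406 normalised reads in the controls and 351, 451, 454, 419, 411 and 355 in the cKO. The 2 highest Itpr2 values belonged to control 4 and control 5, the libraries with the most mitochondrial ribosomal RNA, and the log2 fold change was -0.08 (SE 0.14). Without these 2 libraries it was 0.13. Itpr3 measured 120.1, 102, 92.9, 147, 136 and 95.2 normalised reads in the controls and 83.3, 121, 113, 93.7, 102 and 93.6 in the cKO. Controls 4 and 5 were again the highest, and the log2 fold change of -0.18 (SE 0.14) became 0.00 without them. Whether the ribosomal RNA share of these libraries has a part in those values was not tested.

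Levels of different genes were set side by side only per length, as normalised reads per kb of the longest annotated coding transcript (8.99 kb for Itpr3 to 16.8 kb for Ryr2). In the controls the order was Itpr1 (1891 ± 201), Ryr2 (322 ± 83.5), Itpr2 (37.6 ± 9.56), Ryr3 (24.2 ± 6.09), Itpr3 (12.8 ± 2.48) and Ryr1 (8.77 ± 2.09; SD, n = 6 each). Itpr1 and Ryr2 stood clear of each other and of the rest, whereas each of the other neighbouring pairs in this order overlapped in range. In the cKO, Ryr1 stood at 17.6 ± 2.28 normalised reads per kb (14.3 to 20.5) and Itpr3 at 11.2 ± 1.53 (9.26 to 13.4), so that Ryr1 was no longer the lowest and its range overlapped with that of Ryr3 (18.6 to 29.98). Ryr1 made up 2.31% to 2.83% of the summed ryanodine receptor level per kb in the controls and 3.30% to 5.56% in the cKO. Ryr2 made up 89.0% to 91.7% in the controls and 87.4% to 90.8% in the cKO. Among the IP3 receptors, Itpr1 supplied 96.9% to 97.8% in both groups together.

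Transcript length was examined because all 6 genes have transcripts longer than at least 96.0% of tested genes, and libraries differed in how levels moved with length. The slope of each library's log2 deviation per doubling of transcript length ran from -0.13 (control 3) to 0.12 (control 2) in the controls and from -0.03 (cKO 3) to 0.11 (cKO 2) in the cKO. Control 3 had the lowest Ryr1, Ryr2, Ryr3, Itpr2 and Itpr3 of its group. With a linear length trend removed from each library, the log2 fold changes were 0.87 for Ryr1, 0.06 for Ryr2, -0.08 for Ryr3, -0.20 for Itpr1, -0.20 for Itpr2 and -0.28 for Itpr3. Ryr1, chosen on the same reads, stood apart from the other 5 on this scale too.

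Read sharing within the family was checked on transcript sequences of GENCODE release M21. None of the 15309 windows of 50 bases in the longest Ryr1 coding transcript, and none in those of the other 5, occurs in a transcript of another member. With any gene, Ryr1 shared 3.18% of its windows, all with the models Gm26604 and Gm44408 on the opposite strand, which were not analysed here. Ryr3 shared 5.30% with Aven, an inhibitor of cell death encoded on the opposite strand at its start. Aven measured 132 ± 18.9 normalised reads without and 129 ± 15.6 with Cre (SD, n = 6 each), a log2 difference of -0.03 (adjusted p = 0.942 by limma). The sources used here do not say whether reads were counted by strand, so the values may include antisense reads.

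The split of the libraries by Y-linked reads, which coincides with column numbers 1 to 3 against 4 to 6, is a contrast that played no part in the choice of members. None of the 6 members was called for it (limma; 0 at an unadjusted p under 0.05, 0 by edgeR and 0 by DESeq2), against 0.0764% of all tested genes. The split was made from reads of Y-linked genes, so such genes enter that share by construction. The largest difference among the members was that of Itpr2, at 390.4 ± 62.8 normalised reads with and 455 ± 93.1 without Y-linked reads (SD, n = 6 each; log2 difference -0.21, SE 0.14, limma adjusted p = 0.525). Ryr1 gave 0.09 (SE 0.15, limma adjusted p = 0.836). The log2 fold change of Ryr1 between the genotypes was 1.17 with and 0.88 without Y-linked reads. Ryr1 was chosen on these values and its groups did not overlap, so a rise in both sets was given in advance and tests nothing. The difference between these fold changes, 0.29 (SE 0.30), was not called (limma interaction, adjusted p = 0.750).

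For Itpr2 the genotype effects in the sets had opposite signs, 0.21 with and -0.37 without Y-linked reads. This difference of 0.58 (SE 0.23) had an unadjusted p of 0.0250 and an adjusted p of 0.562 in limma's interaction test over all genes, so it was not called. Without control libraries 4 and 5 it was 0.26. Across all genes the interaction called 0.0% (0 of 14397 by limma with 1263 at an unadjusted p under 0.05, 0 by edgeR and 3 by DESeq2), and none of the 6 members was among the calls of any of these tools.

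The channels work with partners that load, tether or gate them. Lists of such genes were drawn up from textbook roles, with earlier results on these data known. Of 92 tested genes in 5 lists, 2 rose in the cKO, Jsrp1 and Plch1, and 0 fell (limma; 9, or 9.78% against 9.73% of all tested genes, had an unadjusted p under 0.05, 0 of them lower in the cKO; edgeR and DESeq2 each called 2 and 0). Over all tested genes, 0.764% rose and 0.0695% fell, so the 2.17% of the lists that rose amounts to 2 genes. The median log2 fold change of the 92 genes was 0.05, with 60 above 0, beside a median of 0.00 and 49.9% above 0 for all tested genes. Without control libraries 4 and 5 the median was 0.01 and 48 of 92 lay above 0.

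Among 23 tested partners and regulators of ryanodine receptors, Jsrp1 alone was called. It encodes a junctional protein of the sarcoplasmic reticulum that binds the voltage sensor and calsequestrin in skeletal muscle. Jsrp1 measured 52.7, 37.9, 91.2, 65.8, 88.1 and 68.9 normalised reads in control libraries 1 to 6 and 136, 86.4, 156, 119, 113 and 135 in cKO libraries 1 to 6. Of the cKO libraries, 5 of 6 lay above all controls, with cKO 2 below control 3 and control 5. The log2 fold change was 0.91 (SE 0.20, limma adjusted p = 0.0370), but the call ended without control 1, 2, 4 or 6 or cKO 1, 3, 4, 5 or 6 (adjusted p up to 0.119, log2 fold changes of 0.76 to 0.95), without both control libraries 4 and 5 (0.104), with a filter at a mean of 50 (0.0682) and with no filter (0.0621). Unlike Ryr1, Jsrp1 was lowest in control 2 and highest in control 3 among the controls. The other 22 tested partners had log2 fold changes from -0.21 to 0.81, the highest being that of Casq2 (limma adjusted p = 0.368). In limma 2 of the 23 had an unadjusted p under 0.05, Jsrp1 and Casq2. The list, with a median of -0.02, takes in the calmodulin genes Calm2 and Calm3 (0.01 and 0.09), the immunophilins Fkbp1a and Fkbp1b that stabilise the closed channel (0.11 and -0.20), and the neuronal junctophilins Jph3 and Jph4 that hold the reticulum to the plasma membrane (-0.09 and -0.10). Casq1, Trdn, Jph2, Hrc and Stac3, partners of the muscle channel, were below the expression filter of a mean of 10 normalised reads and not in the main test.

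None of the 9 tested voltage-gated calcium channel partners was called by limma, edgeR or DESeq2, and 0 had an unadjusted p under 0.05 in limma. Cacna1s, the pore subunit of the skeletal muscle voltage sensor that gates RYR1 there, measured 17.5 ± 4.47 normalised reads without and 13.2 ± 2.50 with Cre (SD, n = 6 each), a log2 difference of -0.37 (SE 0.22, adjusted p = 0.560 by limma). The estimate for the voltage sensor thus had the opposite sign to that of Ryr1, without a call. Cacna2d1, an auxiliary subunit, stood at 0.24 on the log2 scale (adjusted p = 0.531 by limma).

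Upstream of the IP3 receptors, 26 genes for IP3 formation and removal were tested and Plch1 alone was called. It encodes phospholipase C eta 1, a neuronal enzyme that makes IP3 and responds to calcium. Plch1 measured 282, 237, 182, 248, 222 and 214 normalised reads in control libraries 1 to 6 and 344, 364, 302, 345, 383 and 356 in cKO libraries 1 to 6. Each cKO library lay above each control, and the log2 fold change was 0.60 (SE 0.10, limma adjusted p = 0.00640). In limma 3 of the 26 had an unadjusted p under 0.05, namely Plch1, Plcb4 (0.26) and Itpkb (0.17), beside 9.73% of all tested genes. The log2 fold change of the metabotropic glutamate receptor gene Grm5 was 0.19, that of the muscarinic receptor gene Chrm1 was 0.12, and that of the most abundant phospholipase C gene of the list, Plcb1, was 0.15, with none called (limma adjusted p from 0.527 to 0.711).

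Among 19 tested partners of the IP3 receptors none was called by limma, edgeR or DESeq2, and 0 had an unadjusted p under 0.05. Mrvi1, whose product links ITPR1 to cyclic GMP signalling, stood at 0.22 on the log2 scale (adjusted p = 0.626 by limma), and Itpripl2, of the family of the receptor-interacting protein ITPRIP, -0.21 (0.578). Of 15 tested genes that refill or buffer the store, 0 were called by any of the 3 tools and 4 had an unadjusted p under 0.05 in limma. These included Calr, the calcium buffer calreticulin of the lumen, at 0.30 (limma adjusted p = 0.476), and Psen2, a presenilin of the same membrane, at 0.29 (0.477). The brain calcium pump Atp2a2 measured 17489 ± 4510 normalised reads without and 20606 ± 2334 with Cre (SD, n = 6 each), a log2 difference of 0.27 (adjusted p = 0.522 by limma).

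**Figure D3:**
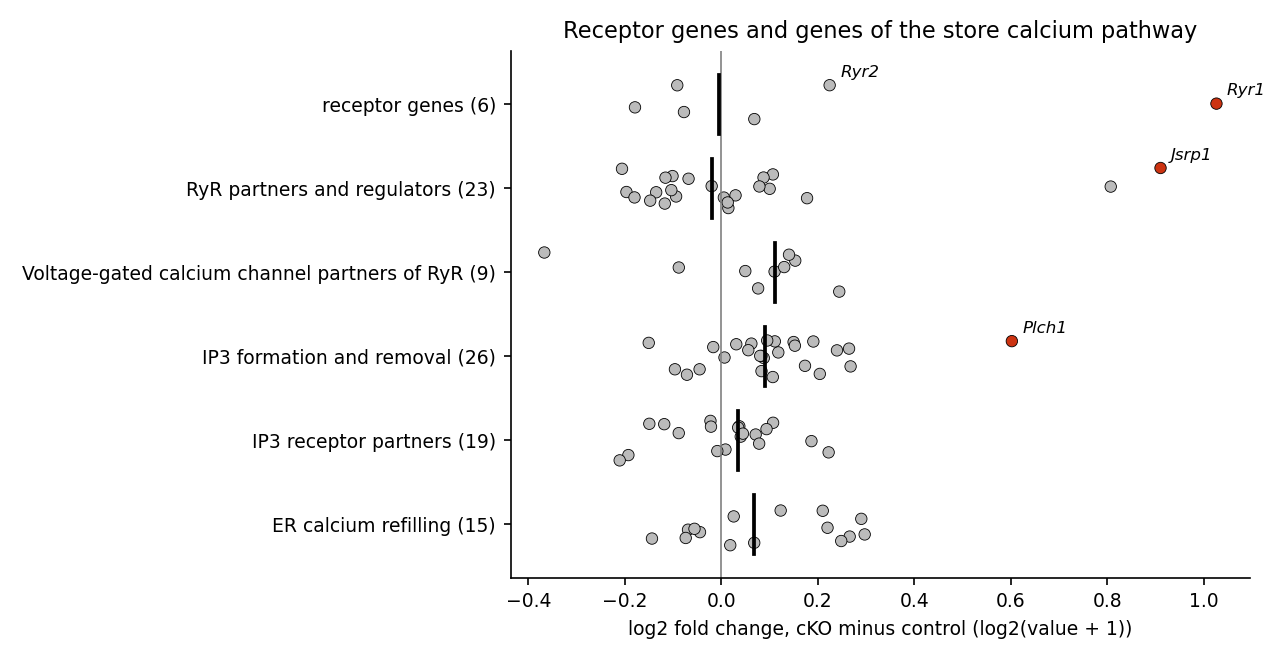
Log2 fold changes of the 6 receptor genes and of the tested genes in 5 pathway lists (numbers in brackets), red where limma's adjusted p over all genes was under 0.05, with a black bar at the median of each row and a vertical scatter that carries no value. Ryr1 at 1.03, Jsrp1 at 0.91 and Plch1 at 0.60 are the called genes.

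None of the genes tested beside Ryr1 was called. The 3 nearest tested genes on either side, by their order in GRCm38, had log2 fold changes of 0.11 (Actn4, an actin crosslinker), -0.24 (Eif3k, a translation factor subunit), 0.33 (Map4k1, a kinase of blood cells), -0.39 (Rasgrp4, a Ras activator of mast cells), -0.19 (Fam98c) and -0.13 (Spred3, an inhibitor of the MAP kinase cascade). Their limma adjusted p lay between 0.457 and 0.690. Map4k1 and Rasgrp4 had means of 18.0 and 12.2 normalised reads, so these 2 values are the least precise.

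**Figure D4:**
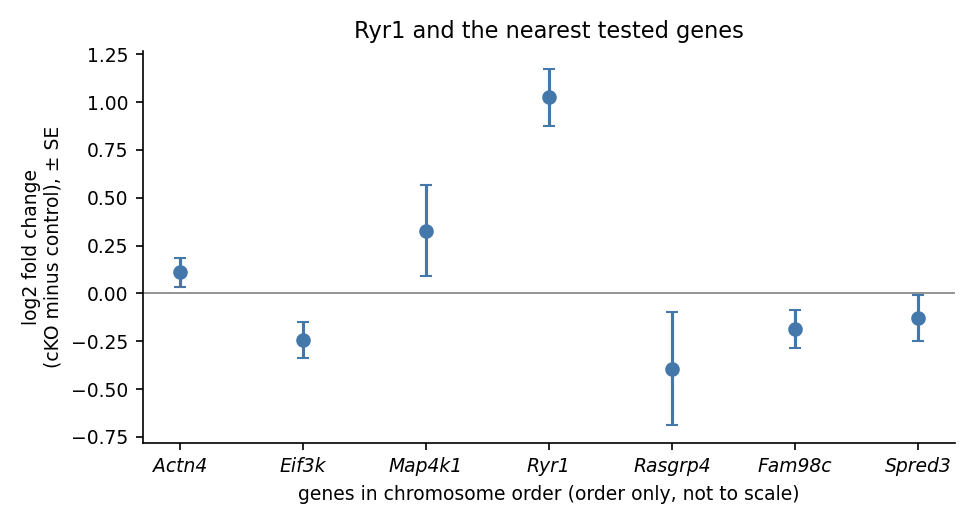
Log2 fold change with its standard error for Ryr1 and the 3 nearest tested genes on either side, in chromosome order. Ryr1 stands at 1.03 and its neighbours between -0.39 and 0.33.

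Markers of muscle were examined because Ryr1 is the skeletal muscle isoform. In bulk tissue a different number of cells of a type and a different amount of RNA per cell cannot be told apart. Of 22 skeletal muscle markers, 14 were below the filter, and Ckm, Myot and Myog lay at or under 3 reads in every library. The median of the 8 tested was 0.21 on the log2 scale, with 5 above 0. In limma 1 was called and 3 had an unadjusted p under 0.05 (Myh2, Neb at 0.67 and Myh1 at 0.85, all higher in the cKO). Over all tested genes these shares were 0.834% and 9.73%. Myh1 passed the filter of 10 only through its cKO mean (8.79 normalised reads without and 17.2 with Cre). Ttn (-0.23), Cacna1s (-0.37) and Pygm lay below 0 without a call. The summed level of the list overlapped between controls (939 to 1193 normalised reads) and cKO (911 to 1318) and came mostly from Pygm, a glycogen phosphorylase also present in brain (708 ± 80.1 and 688 ± 93.0, SD, n = 6 each, or -0.04 on the log2 scale). The myosin gene Myh2 was at 5.64 to 26.3 normalised reads in the 6 controls and at 31.9 to 56.9 in the 6 cKO (1.48 on the log2 scale, SE 0.30, adjusted p = 0.0202 by limma), a call that ended without control 5 or cKO 4 or 5 (adjusted p up to 0.0688) and without control libraries 4 and 5 together (0.0786, 0.95 on the log2 scale). In the 9 cardiac markers none of 4 tested was called by limma or edgeR, 2 were called by DESeq2 and 2 had an unadjusted p under 0.05 in limma. The most abundant, Myl4, a myosin light chain also made in brain, stood at -0.60 on the log2 scale (adjusted p = 0.155 by limma). Tnnt2, the other gene with an unadjusted p under 0.05, went the other way, at 0.73 (limma adjusted p = 0.0698).

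Other cell types and regions in which these receptors are known had list medians between -0.06 and 0.10. Cerebellar markers, relevant to Ryr1 and Itpr1 in Purkinje cells, summed to 3556 to 4630 normalised reads in the controls and 3989 to 4511 in the cKO, and Pcp2 and Gabra6, defining genes of Purkinje and granule cells, were below the filter. Their median was 0.02 over 10 genes, with Calb1 the most abundant (0.22, limma adjusted p = 0.516) and Grid2ip called (1.43, limma adjusted p = 0.000315). Medians were 0.05 for hippocampal markers (7 genes, Wfs1 leading at 0.26, Lct called at 1.24), 0.04 for striatal and thalamic markers (11 genes, Ppp1r1b leading at 0.04, Rgs16 called at 0.81) and -0.03 for astrocyte markers (11 genes, Slc1a2 leading at -0.04, Aqp4 called at 0.53). They were 0.02 for newly formed oligodendrocytes (9 genes, Bcas1 leading at -0.19), 0.05 for smooth muscle and mural cells (9 genes, Rgs5 leading at -0.11), -0.06 for choroid plexus (3 genes, Kl leading at -0.06), 0.04 for excitatory neurons (8 genes, Camk2a leading at -0.17) and 0.10 for interneurons (7 genes, Gad1 leading at 0.16). No gene of these last 5 lists was called by limma, edgeR or DESeq2, while 2, 0, 0, 1 and 0 of them had an unadjusted p under 0.05. In the cerebellar, hippocampal, striatal and thalamic, and astrocyte lists, 2, 2, 2 and 3 genes had such a p in limma. Beside the called genes and Wfs1, these were Gng13 (-0.57), Tac1 (-0.36), Sox9 (-0.33) and Gja1 (0.28). Over all tested genes, 9.73% had an unadjusted p under 0.05 and 0.834% were called by limma. The part of cell composition in the Ryr1 difference was not tested.

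The genes whose pattern over the 12 libraries was most like that of Ryr1, by Pearson correlation of log2 values among 11399 other genes with a mean of at least 50, were Chrnb3 (r = 0.93), a nicotinic receptor subunit, Ysk4 (0.93), a MAP kinase kinase kinase, Myo18b (0.92), an unconventional myosin of striated muscle, Plch1 (0.91) and Hkdc1 (0.90), a hexokinase family member. Each of the 5 was higher in all cKO libraries than in any control, and 4 of them, all except Ysk4, were called by limma. The likeness therefore includes the genotype difference by which Ryr1 was chosen. With the group means taken out, the most similar genes were Zfp592 (0.94), Usp31 (0.94), Kdm3b (0.92), Fam120a (0.92) and Farp2 (0.92), with log2 fold changes between -0.03 and 0.07. Among the members, the likeness to Ryr1 was 0.64 for Ryr2, 0.48 for Ryr3, 0.15 for Itpr2, 0.02 for Itpr1 and -0.07 for Itpr3 over the 12 libraries. With the group means taken out it was 0.81, 0.85, 0.63, 0.74 and 0.66, so the libraries in which Ryr1 was high for its genotype were also those in which the other receptors tended to be high. These values share each library's depth and length trend and are given as a description.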

How the data were processed

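RNA-seq libraries of 12 cortices (6 per genotype) were, per the labels' protocols, prepared with a directional kit from 250 ng of RNA depleted of ribosomal RNA. Trim Galore, Bowtie, bedtools, STAR and mm9 appear in the submitters' processing notes, without versions. The deposited signal is, per the file headers, a count normalised by the authors with DESeq2. Every value was a whole multiple of the value of 1 read within 0.01 reads (100% of values), which gave back whole reads. The authors' deposited table also holds a log2 fold change with standard error, a score (Wald statistic) and a p-value per gene. Columns were assigned to a genotype only, because Y-linked reads (sum above 100) disagreed with labelled sex in 8 of 12. The sources do not say whether each library is one animal, so the p-values reflect only how far samples vary.

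The main test was limma 3.58.1 (R 4.3.3) (two-sided, trended variance) on log2(value + 1), with terms for the genotype and the Y-linked split, over 14397 genes with a mean of at least 10. edgeR 4.0.16 and DESeq2 1.42.0 were run on recovered reads. edgeR called 119 genes for genotype. The tests were tested on simulated data. The split replaced the labelled sex after earlier results on it were known. Members and lists were chosen with earlier results of these data known. The text names the 6 members, Nsd1, called genes of each pathway list or the 2 largest changes, neighbours of Ryr1, the most similar genes and the most abundant gene of each marker list. Other genes named were chosen after their values were seen. Transcript lengths and neighbours came from GENCODE M21 (GRCm38), which is not the submitters' build, so no gene coordinates are printed, and 98.2% of tested genes had a length. Promoter sequences are RefSeq's, for 4 of 6 members. Ryr3 and Itpr1 promoters were not used here.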

Additional observations from a re-analysis of the deposited data

Results flagged for a closer look

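No value of the 6 receptor genes lay far from the rest of its group. Among 92 groups of 6 libraries (46 named genes in each genotype), 5 had a single library whose gap to its nearest neighbour was large for the group's range (Dixon's 95% criterion), where chance alone gives about 1 in 20. Lct was high in control 1 (48.5 normalised reads, the others 18.2 to 29.2) and low in cKO 4 (46.3, the others 66.8 to 75.9). Aqp4 was high in control 4 (2678, the others 1818 to 2107), and cKO 3 was high for Bcas1 (3291, the others 2094 to 2504) and for Map4k1 (23.7, the others 17.5 to 19.8).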

How the results depend on the processing

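The log2 fold change of Ryr1 lay between 0.87 and 1.17 over 26 other settings (0.90 to 1.12 with single libraries left out). The sign of Ryr3 changed without control 3 (-0.06) and with the length trend removed (-0.08), that of Itpr2 without control 4 (0.00) and without control libraries 4 and 5 (0.13), and that of Itpr3 without control libraries 4 and 5 (0.00). Leaving out single libraries gave 0.11 to 0.32 for Ryr2, -0.06 to 0.17 for Ryr3, -0.14 to -0.06 for Itpr1, -0.15 to 0.00 for Itpr2 and -0.25 to -0.11 for Itpr3. The genotype effect over all genes gave 120 calls (110 higher in the cKO), 169 (143 higher) with DESeq2, 168 (148 higher) with array weights, 58 with a filter at a mean of 50, where fewer genes were tested, and 97 to 123 with single libraries left out. Pathway calls fell from 2 to 1 with a filter at 50, with no filter and without control libraries 4 and 5 (1 to 2 with single libraries left out), in each case through Jsrp1. The Y-linked split called 60 genes with DESeq2 and 57 with array weights, against 11 (9 to 19 with single libraries left out). The interaction called 3 genes with DESeq2 and 1 with the replicate block, against 0 (0 to 7 with single libraries left out). The cause was not tested. Array weights for the interaction did not converge and were not run. Column numbers were not taken to pair the libraries: the deviations of same-numbered libraries correlated positively for all 6 numbers but above 0.1 for 4 of 6 (0.09 to 0.50), and 3 of 6 controls correlated best with their own number. With that number as a block, 118 genes were called, the log2 fold change of Ryr1 was 1.03, and Myh2 was not called (limma adjusted p = 0.0933). Ryr2 stayed at 0.22 with the block, with an SE of 0.08 against 0.17 in the main fit. The lowest Ryr1 count, 88 reads, limits the precision of single values.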

Other observations

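Several genes of skeletal and cardiac muscle were near the limit of detection, and those named here were chosen after their values were seen. Trdn, the triadin that anchors calsequestrin to the ryanodine receptor, was counted at 1 to 5 reads in the controls and 3 to 17 in the cKO (3.504 ± 2.04 and 8.15 ± 4.25 normalised reads, SD, n = 6 each), with overlapping groups and, with no expression filter, a limma adjusted p of 0.480. Casq2, the calsequestrin of heart and slow muscle, measured 14.6 ± 7.42 in controls and 23.9 ± 4.25 in cKO on the same scale (SD, n = 6 each), a log2 difference of 0.81 (adjusted p = 0.368 by limma), whereas Casq1, the form of fast muscle, stood at 5.79 ± 3.64 and 6.69 ± 3.19. Other low genes had lower means in the cKO. Jph2, the junctophilin of muscle, measured 10.35 ± 2.01 in controls and 6.96 ± 3.89 in cKO (limma adjusted p = 0.581 with no filter), Stac3 4.50 ± 3.77 and 2.95 ± 1.496 (0.778) and Hrc 3.05 ± 2.39 and 2.34 ± 1.73 (0.916; SD, n = 6 each). The fast troponin genes Tnnc2 and Tnni2 and the myosin light chain gene Myl1 also had lower means in the cKO. They were below the expression filter of the main test. Tnnc2 was at 1.25 to 3.76 normalised reads in the controls and 0 to 1.03 in the cKO. The nearest libraries, control 6 and cKO 6, each held 1 read. Its groups were therefore apart only through the scaling to normalised reads.

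Myod1, the transcription factor that commits cells to the muscle lineage, was at 0 to 4 reads in the controls and at 4 to 21 reads in the cKO (1.38 ± 1.40 and 10.8 ± 4.14 normalised reads, SD, n = 6 each). It was below the expression filter of the main test. With no filter its log2 fold change was 2.45 (SE 0.37, limma adjusted p = 0.00377), with each cKO library above each control in normalised reads. The nearest libraries, control 2 and cKO 4, each held 4 reads, so the groups touched in reads and were apart only through the scaling. Myog, the factor that acts after Myod1 in muscle, was at or under 3 reads in every library.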
